A study of Mus musculus with 12 samples.

Results

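Potassium channel genes were defined as the rows of the expression table whose symbol starts with Kcn, other than Kcnj13, and 52 of the 13942 genes in the table met that rule. They were measured by polyA RNA sequencing of retinal pigment epithelium (RPE), the pigmented sheet behind the photoreceptors, from C57BL/6J mice. The 12 libraries form 4 groups of 3: wild-type (WT) and Sox9 conditional knockout (cKO) at embryonic stage E15.5, and the same genotypes at postnatal day 5 (P5). The Cre line, the deleted part of Sox9, which encodes an HMG-box transcription factor, and any pooling of animals are not stated in the sources used here. Of the 52 genes, 40 encode pore-forming subunits: 23 voltage-gated, 6 inward rectifiers, 6 of the K2P family of leak channels, whose subunits carry a pair of pore domains, and 5 activated by calcium or sodium. Another 11 encode auxiliary subunits, and the remaining 1, Kcnq1ot1, is a long non-coding RNA antisense to Kcnq1.

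Potassium channels let potassium ions leave or enter a cell along the electrochemical gradient and so set its resting potential. In the RPE they recycle the potassium that the sodium-potassium pump brings in, and they take part in potassium exchange with the space around the photoreceptor outer segments and with the choroid. Voltage-gated pores open when the membrane depolarises, inward rectifiers and K2P channels hold the resting conductance, and auxiliary subunits such as the Kcne, Kcnab and Kcnip families change how the pores open or reach the membrane. The members were taken by the naming rule, and the set was chosen with earlier results of these data known.

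The values are counts that had been quantile-normalised and raised to a floor of 50, so that all 12 libraries hold the same set of values and the original depth of each library is unknown. In every library 9.87% of the genes sit at the floor and the median gene is at 367.4. The floor hides values below 50, so that a difference is understated where the libraries at the floor are all in the lower group and can be overstated where the higher group holds them. In bulk tissue a lower value can come from fewer cells of a type or from less RNA per cell, and these cannot be told apart. The targeted gene went against its label. Sox9 was at 963.7, 1499.5 and 1111.4 in P5 WT and at 2135.7, 2383.8 and 2928 in the libraries labelled P5 cKO (log2 fold change 1.07 ± 0.17 SE, limma adjusted p = 0.0316), and it was not called at E15.5 (log2 fold change -0.05, adjusted p = 1). Reads outside the deleted part of Sox9 would still be counted, so that this value does not check the deletion, and the groups below are the groups as labelled. The titles of the cKO samples read kd, whereas their genotype label reads Sox9 cKO, and the genotype label was used. The pigment cell genes Tyr and Pmel were at 2305.5 or more in all 12 libraries. Rpe65, the retinoid isomerase of mature RPE, did not exceed the floor in any of the 6 E15.5 libraries or the 3 libraries labelled P5 cKO, and was at 563.7, 479.2 and 177.8 in P5 WT. Replicates were closer at E15.5 (lowest Pearson r 0.99 across genes) than at P5, where the lowest r was 0.84 in WT and 0.91 in cKO. The P5 libraries differed in genes of neighbouring tissue. The mean log2 value of a list of 25 photoreceptor genes was 7.39, 8.56 and 11.44 in P5 WT and 7.39, 10.68 and 9.68 in P5 cKO, against 6.12 to 6.16 at E15.5. The mean of 13 lens genes was 7.53, 8.68 and 6.20 in P5 WT and 8.51, 8.30 and 9.10 in P5 cKO.

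Many potassium channel genes were at or near the floor. Kcnf1, a silent voltage-gated subunit, was at the floor in all 12 libraries, and Kcnv1, another silent subunit, was above it in 2. The other 50 members exceeded the floor in at least 3 libraries, which the test required, and 18 members were above the floor in all 12. All 3 libraries were at the floor for 15 members in E15.5 WT and for 13 in E15.5 cKO. At P5 the same held for 3 members in WT and for 9 in cKO. Of the 15 at the floor in E15.5 WT, 9 were voltage-gated pores, and the median of the members' group means was 68.6 in E15.5 WT and 118 in P5 WT.

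Levels of different genes were compared after division by exon length. Kcne1l, an auxiliary subunit gene of the Kcne family, had the highest value per kilobase in E15.5 WT, 285 ± 57.6 (SD, n = 3). Kcnk1, a leak channel gene, followed at 107 ± 14.7. Kcnj8, the vascular pore subunit of ATP-sensitive channels, was at 57.4 ± 10.5, and Kcnk2, the mechanosensitive leak channel TREK-1, at 45.7 ± 3.49. The gap from Kcne1l to Kcnk1 exceeded the spread of the replicates, whereas those between Kcnj8, Kcnk2 and the next gene, Kcnk5 at 43.1 ± 5.96, did not. In P5 WT Kcne1l was at 372 ± 315 per kilobase. Kcnj8 at 175 ± 91.6, Kcne4 at 131 ± 71.9 and Kcnk1 at 77.8 ± 8.87 followed it, with overlapping spreads between neighbours. In P5 cKO Kcne1l was at 268 ± 46.6 and Kcnk1 came next at 247 ± 45.2, within the spread.

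Without division by length, and so each to be read alone, Kcna6, a Kv1 pore, was at 188.9 ± 16.0 in E15.5 WT and 239 ± 26.1 in P5 WT. Kcnh2, the ERG channel, was at 204 ± 45.8 and 265 ± 122, and Kcnab2, a beta subunit of Kv1 channels, at 191 ± 6.16 and 375 ± 298. The silent subunit genes Kcnv2 and Kcns3 averaged 151 and 67.6. The large-conductance channel Kcnma1 averaged 65.5, its beta subunit Kcnmb4 53.1 and the sodium-activated channel Kcnt2 54.3, all close to the floor. Kcnq1ot1 was above the floor in every library, with group means from 250.4 in P5 WT to 492 in E15.5 cKO.

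**Figure D1:**
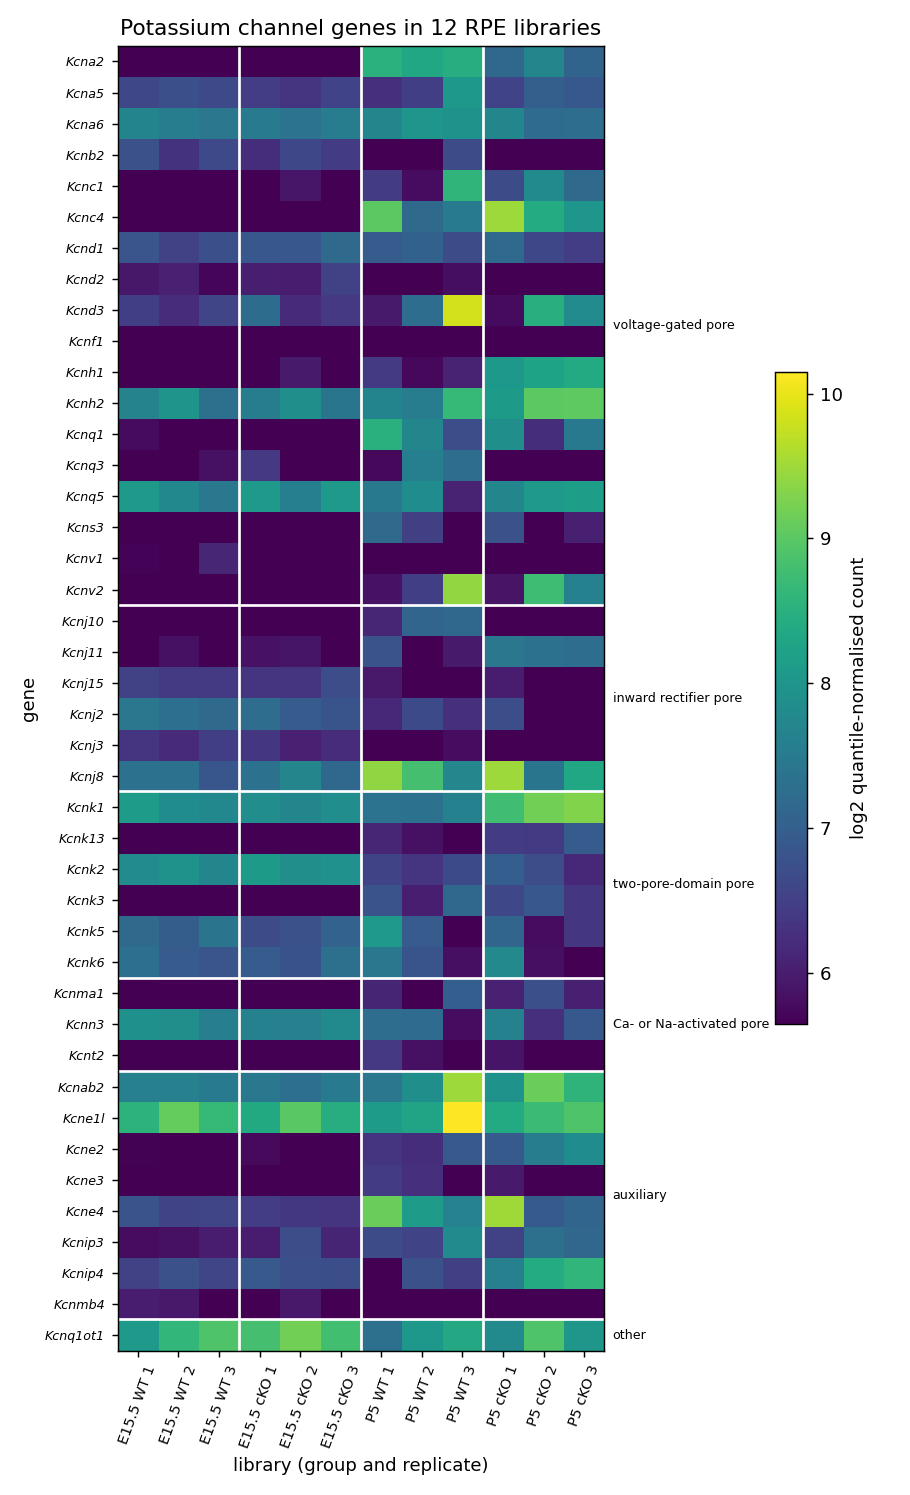
Values of the 42 potassium channel genes named in the text (rows, grouped by class) in the 12 libraries (columns, grouped by age and genotype), as log2 of the quantile-normalised count. The darkest colour is the floor of 50; the P5 columns differ more among themselves than the E15.5 columns.

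At P5, 3 of the 50 tested potassium channel genes were higher and 1 was lower in the libraries labelled cKO, at a limma adjusted p under 0.05 over all 13523 genes tested. Kcnh1, Kcnk1 and Kcnip4 were higher and Kcna2 was lower. These counts are 6% and 2% of the members, beside 0.2% of all genes called higher and 0.0444% called lower. The median log2 fold change of the members was -0.03, beside -0.02 over all genes tested.

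Kcnh1 encodes an ether-à-go-go voltage-gated pore found mainly in the nervous system, and it lies on chromosome 1 at 192190774 to 192510159 on the plus strand (GRCm38, GENCODE M21). At E15.5 it exceeded the floor in cKO replicate 2 alone, at 62.8. In P5 WT it was 85.4, 53.2 and 67.8, and in P5 cKO 265, 307.7 and 338.8, so that every cKO library was above every WT library. The means were 68.8 ± 16.1 and 304 ± 37.1 (SD, n = 3), a 4.42-fold difference, with a log2 fold change of 2.15 ± 0.18 (SE, limma adjusted p = 0.000523).

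Kcnk1 encodes the leak channel TWIK-1 and lies on chromosome 8 at 125995170 to 126030685 on the plus strand, where 179 bases of its exons overlap the opposite-strand gene Gm45875. It was at 276.5, 227.6 and 214.2 in E15.5 WT and at 230.3, 208.8 and 229.8 in E15.5 cKO. At P5 it was 163.8, 161.1 and 196.7 in WT and 437.6, 585.8 and 630.6 in cKO. The P5 WT libraries thus lay below every E15.5 library and the P5 cKO libraries above all of them. The P5 difference was 3.17-fold (174 ± 19.8 against 551 ± 101), with a log2 fold change of 1.65 ± 0.17 (adjusted p = 0.0022).

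Kcnip4 encodes a calcium-binding subunit of Kv4 channels and lies on chromosome 5 at 48389502 to 49524907 on the minus strand. Its exons overlap the opposite-strand genes 5730480H06Rik over 168 bases and Gm20700 over 99, and the counting is not stated to use strand. At E15.5 it ranged from 91.7 to 109.1 in WT and from 105.5 to 119.9 in cKO. At P5 it was at 50, 109 and 90.4 in WT and 194.2, 341.8 and 390.9 in cKO, a 3.72-fold difference without overlap (log2 fold change 1.89 ± 0.30, adjusted p = 0.0389).

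Kcna2, a Kv1 pore of axons, lies on chromosome 3 at 107101146 to 107115005 on the plus strand and did not exceed the floor in any of the 6 E15.5 libraries. At P5 it was 367.9, 326.9 and 350.7 in WT and 142, 210.8 and 137.5 in cKO. The WT libraries agreed closely with each other, and all 3 cKO libraries were below them. The means were 348.5 ± 20.6 and 163 ± 41.1, a 2.13-fold lower value in cKO (log2 fold change -1.11 ± 0.16, adjusted p = 0.0258).

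With 3 libraries against 3, the exact permutation test of each of these 4 differences gave its smallest possible two-sided p, 0.1. Kcnh1 and Kcnk1 passed in each of the 12 fits that left out 1 library, with adjusted p up to 0.00605 and 0.016. Kcnip4 failed in 9 of those fits, with adjusted p up to 0.198 without P5 cKO replicate 3; the libraries were the 6 of E15.5, P5 WT replicate 1 and P5 cKO replicates 2 and 3. Kcna2 failed in 8, with adjusted p up to 0.149 without P5 cKO replicate 3; these were the same libraries other than P5 cKO replicate 2. A fit of the 6 P5 libraries alone called none of the 4 (adjusted p 0.345 for Kcnh1 and 0.56 for Kcnk1), with 8 of 50 members at an unadjusted p under 0.05. The share of all genes in this P5 fit is not given, so that the count of 8 cannot be read against it. The main fit shares its spread with the E15.5 libraries, whose replicates were closer. For Kcna2 all 6 E15.5 values were at the floor, and for Kcnh1 all but that of cKO replicate 2. The small E15.5 spread of these genes was thus set by the floor and does not show how well replicates agreed. Its SEs for Kcnh1, Kcnk1, Kcnip4 and Kcna2 were 0.18, 0.17, 0.30 and 0.16. In the P5 libraries alone they were 0.21, 0.20, 0.41 and 0.21. The main adjusted p thus does not measure the P5 spread alone.

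Lists of other tissues were shifted between the P5 genotypes, although none of the genes of the 4 lists given next was called. The median log2 fold change was 0.99 for the lens list (12 of 13 genes above 0), 0.92 for skeletal muscle (15 of 15 above 0), -0.31 for endothelium (14 of 14 below 0) and -0.40 for Müller glia and astrocytes (8 of 11 below 0). With the lens mean added to the fit Kcnh1 and Kcnk1 were still called (log2 fold changes 2.25 and 1.69), while Kcnip4 (1.74, adjusted p = 0.164) and Kcna2 (-1.01, adjusted p = 0.105) were not. With the photoreceptor mean added all 4 were called, at 2.14, 1.64, 1.87 and -1.12 for Kcnh1, Kcnk1, Kcnip4 and Kcna2, and with the skeletal muscle mean at 2.06, 1.79, 2.23 and -1.20. The part of the endothelial and glial lists was not tested. The mean log2 value of the RPE gene list ranged from 10.99 to 11.68 in P5 cKO and from 11.24 to 12.42 in P5 WT.

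**Figure D2:**
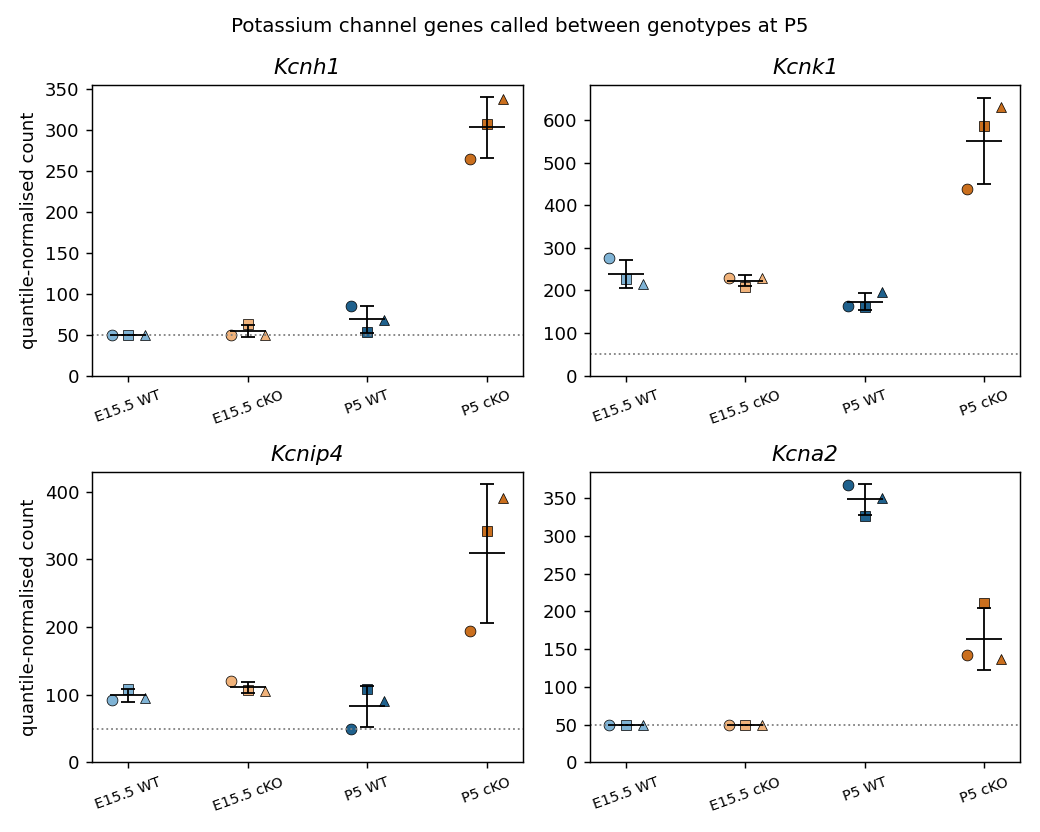
Quantile-normalised counts (linear axis from 0) of the 4 genes called between genotypes at P5, in each library of the 4 groups; circles, squares and triangles are replicates 1, 2 and 3, horizontal lines are means, bars are SD (n = 3) and the dotted line is the floor of 50. Kcnh1, Kcnk1 and Kcnip4 are higher in every P5 cKO library than in any P5 WT library, and Kcna2 is lower.

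Because the study deleted a gene of the Sox family, the promoters of the genes called between genotypes were searched on both strands for the Sox core motifs ACAAAG and ACAATG, which differ in 1 letter, so that no site matches both. RefSeq promoters (GRCm38.p6, 250 bases before to 50 bases after an annotated start) were at hand for 37 of the 52 members, 54 sequences in all, and 15 of them, 27.8%, held a motif, beside 28.6% of all 32851 mouse promoters of that length. The promoters of Kcnh1 (chr1:192190527-192190826, plus strand), Kcnk1 (chr8:125994852-125995151, plus strand) and Kcna2 (chr3:107101317-107101616, plus strand) are shown as those of 3 of the 4 called genes, with a motif in capitals.
Kcnh1: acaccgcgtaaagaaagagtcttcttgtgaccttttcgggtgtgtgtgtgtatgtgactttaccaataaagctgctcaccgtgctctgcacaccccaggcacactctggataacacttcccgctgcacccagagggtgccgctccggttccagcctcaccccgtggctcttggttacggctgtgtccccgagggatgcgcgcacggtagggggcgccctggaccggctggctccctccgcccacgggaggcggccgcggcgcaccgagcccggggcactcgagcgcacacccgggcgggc
Kcnk1: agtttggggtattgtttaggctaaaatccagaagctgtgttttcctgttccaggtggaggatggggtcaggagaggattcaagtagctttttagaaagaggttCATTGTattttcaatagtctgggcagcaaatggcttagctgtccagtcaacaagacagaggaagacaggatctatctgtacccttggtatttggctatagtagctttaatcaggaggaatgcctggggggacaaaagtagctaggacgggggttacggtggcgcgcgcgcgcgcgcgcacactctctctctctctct
Kcna2: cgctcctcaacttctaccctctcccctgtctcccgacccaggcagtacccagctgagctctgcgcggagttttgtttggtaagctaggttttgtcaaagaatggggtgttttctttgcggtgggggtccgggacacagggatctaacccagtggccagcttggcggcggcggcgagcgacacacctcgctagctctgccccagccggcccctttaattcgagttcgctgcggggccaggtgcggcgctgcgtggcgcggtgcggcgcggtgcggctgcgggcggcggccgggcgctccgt
The Kcnk1 window held 1 match, CATTGT, which is ACAATG on the other strand, 147 bases before the start. The windows of Kcnh1 and Kcna2 held none of these letters. The GC content of the Kcnh1, Kcnk1 and Kcna2 windows was 66%, 49% and 66.7%, beside a median of 52.7% for all promoters. Both RefSeq starts of Kcnip4 lie far from the start of the gene in GENCODE, by 239248 and 925225 bases, and its promoters are not shown.

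Another 5 members had P5 cKO libraries all on one side of the P5 WT libraries but did not pass the test. In all 9 of the 50 members, 18%, the P5 groups did not overlap, beside 6.18% of all genes tested, and 11 of the 50 members had an unadjusted p under 0.05, beside 7.68% of all genes. Kcnj10 encodes Kir4.1, the main inward rectifier of Müller glia. It did not exceed the floor at E15.5, was at 69.8, 138.8 and 141.4 in P5 WT, and was at the floor in all 3 P5 cKO libraries (log2 fold change -1.14 ± 0.23, adjusted p = 0.0984). It entered the test through the P5 WT libraries alone, so that its lack of overlap at P5 was fixed once it was tested. The counts of 9 and 11 members include it. In the list of Müller glia and astrocyte genes, which shares Rlbp1 with the RPE list, 7 of 11 had an unadjusted p under 0.05. The mean log2 value of the list ranged from 11.33 to 12.09 among the P5 WT libraries and from 11.14 to 11.66 among those of P5 cKO. Gfap, the glial filament gene, was at 5459.1, 18743.3 and 6361.7 in P5 WT and at 3702.9, 2111.5 and 5868.2 in P5 cKO, whereas the glutamine synthetase gene Glul was at 10807.4, 12871 and 8170.8 and at 12390.1, 13957.8 and 16113. The part of glia in the Kcnj10 values was not tested. Kcnj11, the Kir6.2 pore of ATP-sensitive channels, was at 111.8, 50 and 62.6 in P5 WT and at 173.1, 161.1 and 153.2 in P5 cKO (log2 fold change 1.19 ± 0.24, adjusted p = 0.111). The cKO values of Kcnj11 were close to each other, and the highest WT value did not reach them.

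The leak channel gene Kcnk13 was at 69.8, 57.3 and 50 in P5 WT and at 86.3, 84.8 and 124.4 in P5 cKO (log2 fold change 0.72, adjusted p = 0.199). Kcne2, an auxiliary subunit that assembles with Kv7 and ERG pores, was at 81.3, 75.4 and 120.2 in WT and at 121.3, 187.6 and 228.3 in cKO (log2 fold change 0.93, adjusted p = 0.244). Its lowest cKO and highest WT values nearly touched. Kcnq3, a subunit of the neuronal M-current, was at 53.2, 192 and 152.5 in P5 WT and at the floor in all P5 cKO libraries (log2 fold change -1.20 ± 0.39, adjusted p = 0.443). Of its WT libraries, replicate 1 was close to the floor.

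The remaining members did not pass and their P5 groups overlapped. By class, 1 of 21 tested voltage-gated pores was called higher and 1 lower, none of 6 inward rectifiers and none of 5 calcium- or sodium-activated pores was called, 1 of 6 K2P genes was higher, and 1 of 11 auxiliary genes was higher. The class medians of the log2 fold change ran from -0.21 for calcium- or sodium-activated pores to 0.02 for K2P genes, with Kcnq1ot1 alone at 0.34.

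**Figure D3:**
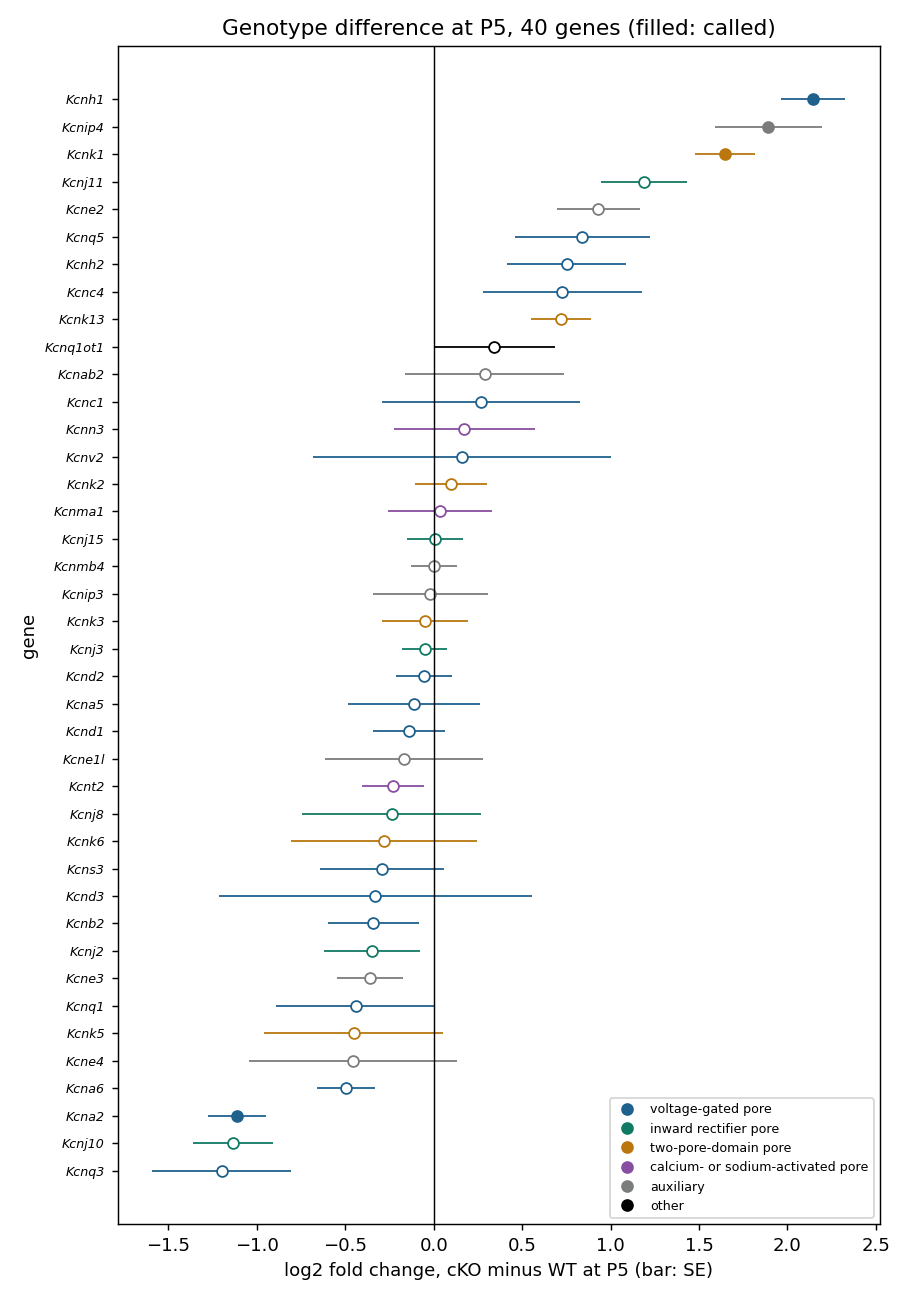
Log2 fold change between genotypes at P5 (cKO minus WT, horizontal axis) for the 40 tested potassium channel genes named in the text (vertical axis, ordered by size and coloured by class); bars are standard errors from the limma fit and filled points were called. Kcnh1 is at the top at 2.15, Kcna2 is the filled point on the left at -1.11, and most open points lie within their error of 0.

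At E15.5 none of the 50 members was called by limma between genotypes, and none had an unadjusted p under 0.05. The background was 0.00739% of all genes tested, a single gene, with 49 genes at an unadjusted p under 0.05. The members' log2 fold changes ran from -0.35 to 0.47. The 2 E15.5 groups did not overlap for 5 of 50 members, 10%, beside 5.1% of all genes. These were Kcnd1, a Kv4 pore, at 113.3, 91.5 and 107.7 in WT and 117.2, 116.3 and 147.7 in cKO, together with Kcnip3, Kcna5, Kcne4 and Kcnab2, each with a log2 fold change of at most 0.38 in size. All tests share a spread that was estimated over both ages. The median SD of the log2 values was 0.32 in P5 WT and 0.23 in P5 cKO. It was 0.11 in E15.5 WT and 0.12 in E15.5 cKO. For a gene with a wide P5 spread the E15.5 test was therefore strict, and the lack of calls does not show that no member differed. A fit of the 6 E15.5 libraries alone called none either and put 2 of the members at an unadjusted p under 0.05. The share of all genes in that fit is not given.

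The interaction of age and genotype asked whether the genotype difference at P5 departed from that at E15.5. It was called for Kcnh1 (log2 difference 2.04 ± 0.26, adjusted p = 0.0221) and Kcnk1 (1.74 ± 0.24, adjusted p = 0.0294), 2 of 50 members or 4%, beside 0.0592% of all genes tested. Kcna2 (-1.11 ± 0.23, adjusted p = 0.422) and Kcnip4 (1.73, adjusted p = 0.751) did not pass, so that for them a difference between the ages was not shown. Because the P5 libraries enter both, the interaction is not independent of the P5 comparison. The Kcnh1 interaction failed in 7 of the 12 fits that left out 1 library, with adjusted p up to 0.114 without P5 cKO replicate 3. Those 7 libraries were E15.5 WT replicates 1, 2 and 3, E15.5 cKO replicates 1 and 3, and P5 cKO replicates 2 and 3. The Kcnk1 interaction failed in 10, all but those without P5 WT replicate 3 or P5 cKO replicate 1, with adjusted p up to 0.159 without E15.5 cKO replicate 2.

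Between E15.5 and P5 most potassium channel genes did not pass the test in either genotype. In WT 12 of the 50 members rose and 4 fell, 24% and 8%, beside 15% and 23.2% of all genes tested. Without Kcnj10, which was above the floor in P5 WT alone and so had to differ once tested, 11 rose. In cKO 13 rose and 6 fell, 26% and 12%, beside 17.6% and 26.1% of all genes. Kcna2, Kcnc4 and Kcnk3, risers in both genotypes, were at the floor in every E15.5 library. They entered the test through P5 libraries alone and so could only rise. The same held for Kcnk13, a riser in cKO. The shares of all genes were counted under the same requirement. Of the members called, 11 were called in the same direction in both genotypes, which is 68.8% of the 16 called in WT and 57.9% of the 19 called in cKO. Over all genes tested these shares were 85.1% of 5171 and 74.5% of 5905. The 4 groups are distinct libraries, so that the WT and cKO age comparisons share no samples, but they share the spread estimate.

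Among voltage-gated pores 6 of 21 rose and none fell in WT, and 7 rose and 2 fell in cKO. Kcna2 rose from the floor to the P5 values given above, at least 6.97-fold in WT (log2 fold change 2.78 ± 0.16) and at least 3.27-fold in cKO (1.66 ± 0.16). Kcnc4, a fast Kv3 pore that lies in the same region of chromosome 3 (107438303 to 107459552), also started at the floor in all 6 E15.5 libraries. It reached 516.8, 146.3 and 182.3 in P5 WT and 717.3, 340.8 and 257.4 in P5 cKO. In both genotypes replicate 1 was the highest P5 library. The rise was at least 5.64-fold in WT (log2 fold change 2.24 ± 0.45, adjusted p = 0.00306) and at least 8.77-fold in cKO (2.97 ± 0.45, adjusted p = 0.000514).

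Kcnq1, a Kv7 pore of epithelia, was at or near the floor at E15.5 and reached 363.3, 208.8 and 104.3 in P5 WT and 236.9, 75.3 and 175.9 in P5 cKO (log2 fold changes 1.93 ± 0.45 and 1.53 ± 0.45). Its exons overlap those of the antisense transcript Kcnq1ot1 over 121 bases, and Kcnq1ot1 had lower mean values at P5 than at E15.5 in both genotypes without passing the test. Kcnq3 rose in WT alone by the test (log2 fold change 1.13), although its lowest P5 value, 53.2, was below its highest E15.5 value, 57.4. In cKO Kcnh1 rose 5.60-fold (2.46 ± 0.18) and Kcnh2 2.22-fold (1.10 ± 0.34). The falls in cKO were those of Kcnb2, from 75.5, 98.5 and 86.3 to the floor in all 3 libraries (-0.77), and of the Kv4 pore Kcnd2, from 64.7, 64.1 and 92.9 to the floor in all 3 (-0.53). In WT Kcnb2 (-0.57), Kcnd2 (-0.19) and Kcnh2 (0.31) were not called, nor was Kcnq3 in cKO (-0.25). The interaction was not called for Kcnq3, Kcnh2, Kcnb2 or Kcnd2.

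Inward rectifiers rose in 2 and fell in 3 of 6 cases in WT, and rose in 1 and fell in 3 in cKO. Kcnj2, the classical strong inward rectifier Kir2.1, was at 172.1, 157 and 146.4 in E15.5 WT and at 71.5, 101 and 76.2 in P5 WT. In cKO it went from 152.6, 124.3 and 112.7 to 105.5, 50 and 50. All P5 libraries were below those of E15.5 of the same genotype, 1.91-fold in WT (log2 fold change -0.94 ± 0.27) and 1.90-fold in cKO (-0.99 ± 0.27).

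Kcnj15, which encodes Kir4.2, lay between 84.8 and 91.8 in E15.5 WT and between 81 and 104.9 in E15.5 cKO, and at P5 only replicate 1 of each genotype, at 62.1 and 63.2, was above the floor (log2 fold changes -0.69 and -0.70). Kcnj3, a G-protein-gated rectifier, fell likewise from 72.8 to 89.3 in WT and 66.6 to 82.3 in cKO to the floor in every P5 library but P5 WT replicate 3, at 55.7 (-0.63 and -0.56). The floor hides how low these P5 values were.

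Kcnj8 rose in WT from 161.3, 162.1 and 115.3 to 677.6, 451.3 and 211 (3.05-fold, log2 fold change 1.47 ± 0.51, adjusted p = 0.042) and Kcnj10, tested through these P5 libraries alone, left the floor (at least 2.33-fold). In cKO Kcnj8 was at 717.8, 167.8 and 326.3 at P5 and overlapped the E15.5 values of 142.6 to 207.7. Kcnj10 stayed at the floor in every cKO library of both ages. The riser in cKO was Kcnj11, from 50 to 59.4 at E15.5 to 153.2 to 173.1 at P5 (2.91-fold, 1.53 ± 0.24). The difference between genotypes in these changes was not called for any inward rectifier.

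The K2P family held 1 rise and 1 fall in WT and 3 rises and 1 fall in cKO. Kcnk2 fell in both. It was at 224.3, 244.2 and 209.8 in E15.5 WT and at 94.8, 80.2 and 101.3 in P5 WT, and at 274.3, 234.4 and 242.3 in E15.5 cKO and 127.9, 104.6 and 70.6 in P5 cKO. The fall was 2.45-fold in WT (log2 fold change -1.29 ± 0.20, adjusted p = 0.000792) and 2.48-fold in cKO (-1.34 ± 0.20, adjusted p = 0.000546). The acid-sensitive Kcnk3 did not exceed the floor in any of the 6 E15.5 libraries and lay between 65.3 and 141.6 in P5 WT and between 81.5 and 116.3 in P5 cKO (1.0 ± 0.24 and 0.95 ± 0.24). In cKO Kcnk1 (1.29 ± 0.17) and Kcnk13 (0.94 ± 0.17) also rose. In WT Kcnk1 was 1.38-fold lower at P5 than at E15.5 without overlap, and it did not pass the test.

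None of the 5 calcium- or sodium-activated pore genes was called with age in either genotype. Kcnn3, a small-conductance calcium-activated channel, was at 239.4, 234.3 and 189.6 in E15.5 WT and at 153, 148.8 and 55.5 in P5 WT. Of the 11 auxiliary genes 3 rose in WT and 2 in cKO, and none fell. Kcne4, an inhibitory subunit of Kv7 channels, went in WT from 94.7 to 111.3 at E15.5 to 563.3, 278.2 and 200.2 (3.45-fold, log2 fold change 1.64 ± 0.59, adjusted p = 0.0474). In cKO Kcne4 was 3.91-fold higher at P5 without overlap, and it was not called (1.44 ± 0.59, limma adjusted p = 0.0684). Kcnip3, a calcium sensor that also binds Kv4 pores, rose 2.36-fold in WT (1.12 ± 0.33) and was not called in cKO (0.72 ± 0.33). Kcne2 rose 1.83-fold in WT (0.83 ± 0.23) and 3.49-fold in cKO (1.74 ± 0.23), and Kcnip4 rose 2.79-fold in cKO (1.41 ± 0.30). The interaction was not called for any auxiliary gene.

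When 1 library at a time was left out, 10 of the 16 members called in WT and 14 of the 19 called in cKO passed in all 12 fits. The WT calls that depended on single libraries were those of Kcnq3, which failed in 10 fits, Kcnj8 in 9, Kcne4 in 8, Kcnj2 in 3, Kcnip3 in 2 and Kcne2 in 1, with adjusted p up to 0.15. In cKO they were Kcnb2, which failed in 5, Kcnh2 and Kcnq1 in 4 each, and Kcnj2 and Kcnd2 in 3 each, with adjusted p up to 0.0997. Lists of tissue genes moved with age as well. In WT 14 of 16 RPE genes were called higher (median log2 fold change 2.28), 13 of 14 endothelial genes (1.62), 14 of 24 photoreceptor genes (3.53) and 7 of 11 of the Müller glia and astrocyte list (1.21). In cKO these counts were 13, 10, 14 and 7. Kcnj8 and Kcne4 rose in WT beside the endothelial list, whose mean log2 value went from 9.33 to 9.43 at E15.5 to 10.34 to 11.31 at P5, and its part in their rise was not tested. The mean log2 value of the 16 RPE genes lay between 9.16 and 9.51 in E15.5 WT and between 11.24 and 12.42 in P5 WT, and with that mean added to the fit 2 members were called in WT, Kcna2 and Kcnq5, and 1 in cKO, Kcnq5. Age and the RPE list separate the libraries in the same way, so that their parts in these changes cannot be told apart. The share of all genes called with the RPE mean in the fit is not given.

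**Figure D4:**
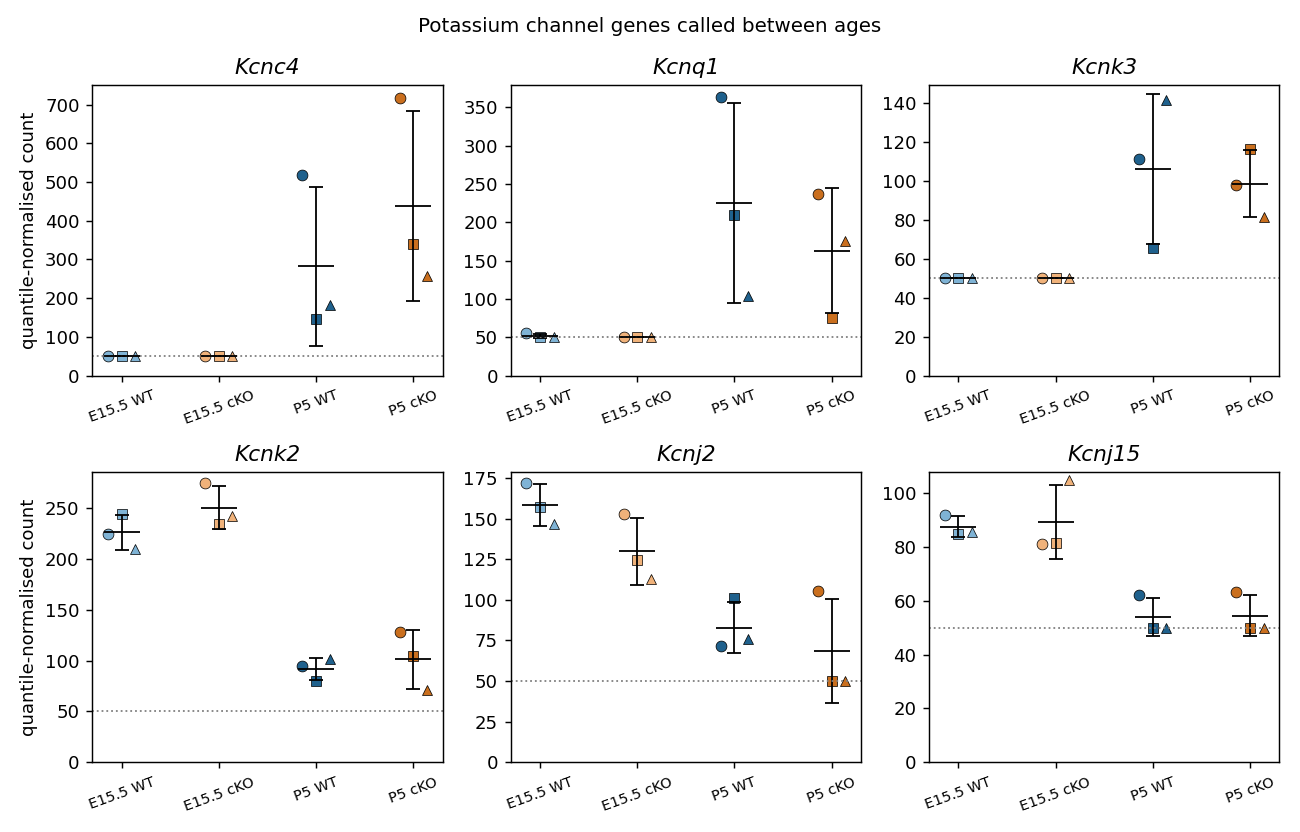
Quantile-normalised counts (linear axis from 0) of 3 genes that rose (Kcnc4, Kcnq1, Kcnk3) and 3 that fell (Kcnk2, Kcnj2, Kcnj15) between E15.5 and P5 in both genotypes, in each library; circles, squares and triangles are replicates 1, 2 and 3, horizontal lines are means, bars are SD (n = 3) and the dotted line is the floor of 50. Kcnc4 leaves the floor at P5 in all 6 libraries, and Kcnk2 is lower in every P5 library than in any E15.5 library.

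Much of the spread among P5 libraries followed a common order, which was noticed in the data and is given as a description. WT replicate 3 and cKO replicate 2 had the highest photoreceptor means of their genotype, and the replicates 1 the lowest. In 18 of the 50 tested members, 36%, WT replicate 3 was the highest WT library and cKO replicate 1 the lowest cKO library, beside 22% of all genes tested. The same held for 24 of 24 tested photoreceptor genes and 13 of 16 genes of inner retinal neurons. The reverse, WT replicate 3 lowest and cKO replicate 1 highest, held for 10 of 50 members, 20%, beside 25.5% of all genes, and for 12 of 14 endothelial and 8 of 10 pericyte and smooth muscle genes.

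The members with the first order included Kcnv2, the silent Kv8.2 subunit known from photoreceptors, which did not exceed the floor at E15.5. At P5 it was 58.4, 89.3 and 682 in WT and 59.1, 428.5 and 196.2 in cKO, an 11.7-fold and a 7.25-fold range within groups of the same label. Kcnd3, a Kv4 pore, had the widest WT range, 62.8, 153.1 and 919.5, with 54.6, 360.1 and 226.2 in cKO. The Kv3 pore Kcnc1 was at 387.1 in P5 WT replicate 3 and at 102.4 in P5 cKO replicate 1. None of these 3 genes was called between ages or genotypes. Kcnk1 also had this order, with a range of 1.22-fold in P5 WT and 1.44-fold in P5 cKO. Its difference between the genotypes at P5 was 3.17-fold. Kcnh1, Kcnip4 and Kcna2 had neither order, although cKO replicate 1 was the lowest P5 cKO library for Kcnh1 and Kcnip4.

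The members with the reverse order included Kcnj8 and Kcne4, which were highest in the replicates 1 of both genotypes. Kcne4 was at 723.8 in P5 cKO replicate 1 and at 120.5 and 138.6 in replicates 2 and 3. Kcnk5 and Kcnk6, K2P leak channels, were at 268.4 and 174.4 in P5 WT replicate 1 and at 50 and 57 in P5 WT replicate 3. Kcnq1, the silent subunit Kcns3, Kcnn3, Kcnd1, Kcne3 and Kcnt2 also had this order. The part of other tissue in the values of these members was not tested.

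**Figure D5:**
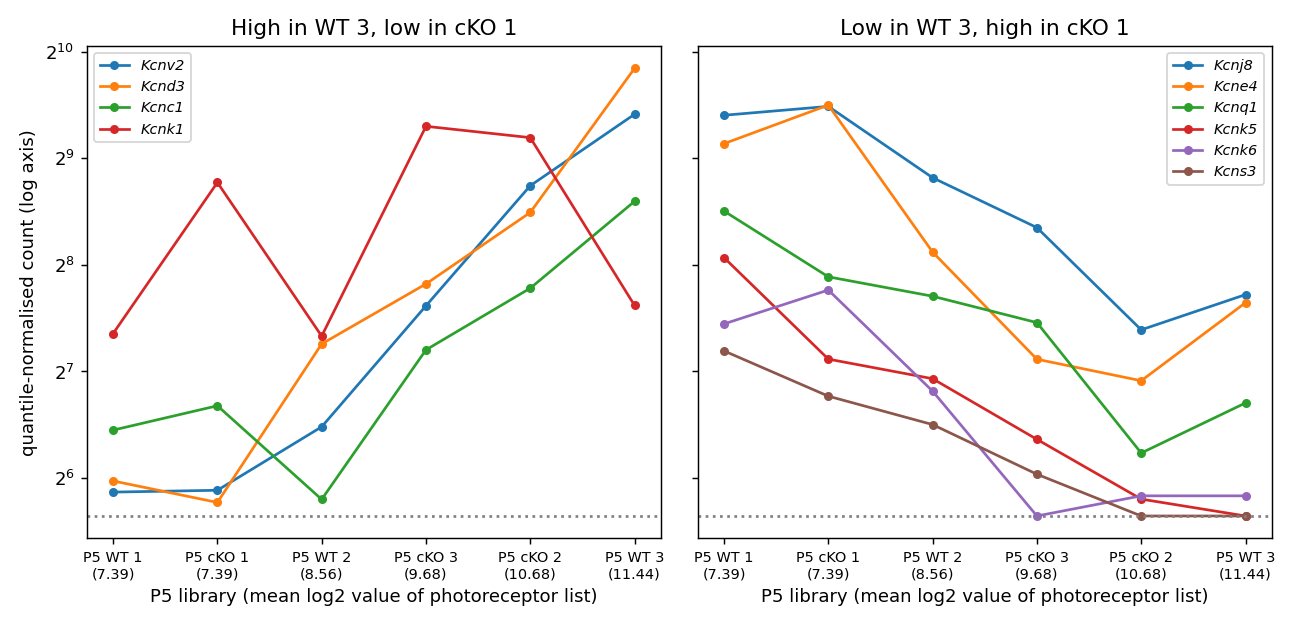
Quantile-normalised counts (log axis) of 10 potassium channel genes in the 6 P5 libraries, which are ordered on the horizontal axis by their mean log2 value of the photoreceptor list (in brackets); lines join the values of a gene and the dotted line is the floor of 50. On the left Kcnv2, Kcnd3 and Kcnc1 are highest in P5 WT replicate 3 and Kcnk1 is higher in all P5 cKO libraries, and the 6 on the right, such as Kcnj8 and Kcnk5, are highest in replicate 1 of WT or cKO.

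Genes that work with potassium channels were described from lists of partner subunits, pumps and carriers, and related channels. None of the 11 tested partner subunit genes, 18 pump and carrier genes or 4 HCN channel genes was called by limma between genotypes at either age or in the interaction. At E15.5 none of them had an unadjusted p under 0.05, and at P5 2, 1 and 0 of them did, beside the 7.68% of all genes given above. With age 7 of 18 pump and carrier genes rose in WT and 8 in cKO, 38.9% and 44.4%, beside 15% and 17.6% of all genes. None fell, beside 23.2% and 26.1% of all genes. The sodium-potassium pump subunit Atp1b2 went in WT from 649.2, 631.2 and 588.1 at E15.5 to 4641.2, 6392.9 and 19463.2 at P5 (log2 fold change 3.74 ± 0.48) and by 3.81 ± 0.48 in cKO. Its P5 cKO values were 4435.8, 13010.5 and 9439.6. Atp1b2 thus had the first of the P5 library orders described above, that of the photoreceptor genes. The part of other tissue in its values was not tested. Atp1b1, the widespread beta subunit, had neither order and rose by 1.95 ± 0.30 in WT and by 2.74 ± 0.30 in cKO.

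Among the partner subunits Cntnap2, which clusters Kv1 channels along axons, rose in WT from 171.4 to 245.5 at E15.5 to 661.7 to 1083.4 at P5 (log2 fold change 2.07 ± 0.36) and in cKO (2.68 ± 0.36). Its partner Cntn2 fell in both (-1.64 ± 0.35 and -1.99 ± 0.35), and Lgi1, which binds the Kv1 complex, rose in cKO (1.45 ± 0.34). The hyperpolarisation-activated channel Hcn2 left the floor at P5 in both genotypes (1.37 ± 0.19 and 1.64 ± 0.19).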

How the data were processed

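The deposited table gives, per the labels and the values, a signal that the authors made from read counts by quantile normalisation and a floor of 50, for 13942 genes in 12 libraries. TopHat2 2.0.10, HTSeq and mm10 come from the submitters' processing notes. The sources used here do not give the annotation release, the strand setting or the depth. Values were tested as log2(value + 1) with limma 3.58.1 in R 4.3.3, with 1 mean per group, all 12 libraries in the fit, a mean-variance trend, and Benjamini-Hochberg adjustment over the 13523 genes above the floor in at least 3 libraries. Calls were made at adjusted p under 0.05 in 5 contrasts. The procedure was tried on simulated data with independent noise per gene and the same spread in all groups. Changes were added there only to genes well above the floor. It therefore did not test calls near the floor, unequal spread between ages or tissue signal shared within a library. Fold changes are ratios of group means, and log2 fold changes are on the log2(value + 1) scale. The labels do not say that replicates were separate animals, so that p-values measure only the spread between these libraries. Coordinates and exon overlaps come from GENCODE M21 (GRCm38).

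The members and the gene lists were chosen with earlier results of these data known. The text names members called between genotypes or in the interaction, the 8 largest rises and falls with age whose libraries do not overlap, the 5 of highest mean per group, the highest of each subfamily, and up to 3 genes of each partner list. Some genes that this rule names are not reported here, while counts cover every member. Other members were named after their values were seen. The order of the P5 libraries was chosen in the same way, as were 3 alternatives.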

Additional observations from a re-analysis of the deposited data

Results flagged for a closer look

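Among the potassium channel genes, the genotype difference departed between the ages in 2, by the interaction term of the limma fit. For Kcnh1 the difference of the log2 fold changes was 2.04 (adjusted p = 0.0221), with a log2 fold change of 2.15 at P5 and 0.11 at E15.5. For Kcnk1 it was 1.74 (adjusted p = 0.0294), with 1.65 at P5 and -0.10 at E15.5. In all 3 libraries labelled P5 cKO both genes were above every library of the other 3 groups.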

How the results depend on the processing

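No potassium channel gene was called by limma between genotypes at E15.5 under any setting run, and leaving out each library gave 0 to 0. The P5 count of 4 was 1 among genes of mean 200 or more (11 members tested), 7 with a photoreceptor term, 2 with a lens term, 0 in the 6 P5 libraries alone, and, with terms added after seeing the data, 8 for the RPE list and 7 for inner retinal neurons. Leaving out each library gave 2 to 5. The WT age count of 16 was 5 at a mean of 200, 35 with library weights, whose estimation stopped before convergence, 28 with the photoreceptor term, 2 with the RPE term and 27 with the neuron term, and 11 to 20 without a library. The cKO age count of 19 was 5 at a mean of 200, 30 with the photoreceptor term and 1 with the RPE term, and 14 to 25 without a library. The interaction count of 2 was 0 at a mean of 200, 0 with the lens term and 1 (Kcna2) without the P5 libraries of highest photoreceptor mean in each genotype, WT replicate 3 and cKO replicate 2, and 0 to 2 without a library. At an unadjusted p under 0.05 these zeros held 8 members for P5, and 1 and 13 for the interaction. The shares of all genes in each alternative setting are not given. The counts therefore do not tell a change among the members from one across the whole table.

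Fitting the replicate number as a block called 3 members at P5, with Kcna2 lost (adjusted p = 0.0715), and 0 in the interaction, with 9 at an unadjusted p under 0.05. The labels give no pairing and the deviations of libraries of the same number correlated from -0.34 to 0.78, so that they share only a number.

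The 37 called values of named genes were recomputed in 928 fits, and 761 stayed called, 165 did not and 2 changed sign, both under the RPE term: Kcnb2 (0.98 in cKO) and Kcnq1 (-0.18 in cKO). Age and the RPE list separate the libraries in the same way, so that their parts in these 2 values cannot be told apart. The depth of the libraries is unknown, and the floor of 50 hides differences among low genes.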
